A study of Danio rerio with 6 samples.

Results

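The genes described here are 4 Wnt ligands (wnt3a, wnt8a, wnt5b and wnt11) and 6 genes that serve as transcriptional readouts or partners of canonical Wnt signalling (axin2, sp5a, sp5l, lef1, tcf7 and dkk1b). They were chosen by symbol in a table of raw gene counts, where the 10 symbols stand for 11 of 32057 entries because wnt8a is listed at 2 gene identifiers. Messenger RNA was sequenced from 6 single whole zebrafish (Danio rerio) embryos, 3 wild type (WT) and 3 Pea3 triple mutants that the labels call 3etv, all at the 10-somite stage, when somite blocks are being added one after another towards the tail. Which 3 genes of the family are mutated, and by which alleles, is not stated in the labels, nor are strain, clutch or line. Pea3 genes encode ETS transcription factors that act downstream of fibroblast growth factor (FGF) signalling.

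Wnt proteins are secreted, lipid-modified ligands that bind Frizzled receptors. In the canonical branch, LRP5 or LRP6 is bound as well, beta-catenin is stabilised, and together with the DNA-binding factors of the LEF/TCF family it switches on target genes, among them axin2, whose product feeds back to promote beta-catenin breakdown. In the zebrafish tailbud, wnt3a and wnt8a are the ligands known to maintain posterior mesoderm progenitors, whereas wnt5b and wnt11 are best known for the non-canonical branch that steers cell movements in convergence and extension. The comparison asked how posterior ligands and canonical readouts stood in 3etv embryos against WT.

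Counts assigned to genes ranged from 22446699 to 28841169 in WT and from 18484238 to 21865288 in 3etv, so each 3etv library was shallower than each WT library. Of the Pea3 genes, etv5a, etv5b and etv1 were lower in 3etv, with log2 fold changes of -1.52, -1.69 and -1.33. etv4 was at -0.52 (edgeR adjusted p 0.057), not called here but called in several of the 14 alternatives. Levels are CPM, read counts scaled to library size with TMM factors, given as mean ± SD over 3 embryos. A gene was called when its edgeR quasi-likelihood p, adjusted over all 18533 tested genes, was under 0.05. CPM is not corrected for transcript length, so levels are compared between embryos and not between genes. In whole embryos, fewer cells of a type and less RNA per cell cannot be told apart. Since clutch and line are not stated, an effect of either cannot be told apart from one of genotype.

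Of the 9 member entries that could be tested, 4 were called. The readouts axin2, sp5l and lef1 were lower in 3etv, by between 0.22 and 0.38 on the log2 scale, and the ligand wnt11 was higher by 0.39. The canonical ligand wnt3a, the ligand wnt5b and the readouts sp5a, tcf7 and dkk1b were not called. Across all tested genes, 31.3% were called, with 15.4% lower and 15.9% higher in 3etv, and no test sets 4 of 9 apart from that share. Without WT replicate 2, WT replicate 3 or 3etv replicate 2, the members called were 2, axin2 and sp5l. Over all tested genes, calls fell from 5801 to 4385, 4719 and 4246 in those settings. The median log2 fold change was -0.12 over the 6 readouts, 0.05 over the 3 tested ligands and 0.0035 over all tested genes.

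**Figure D1:**
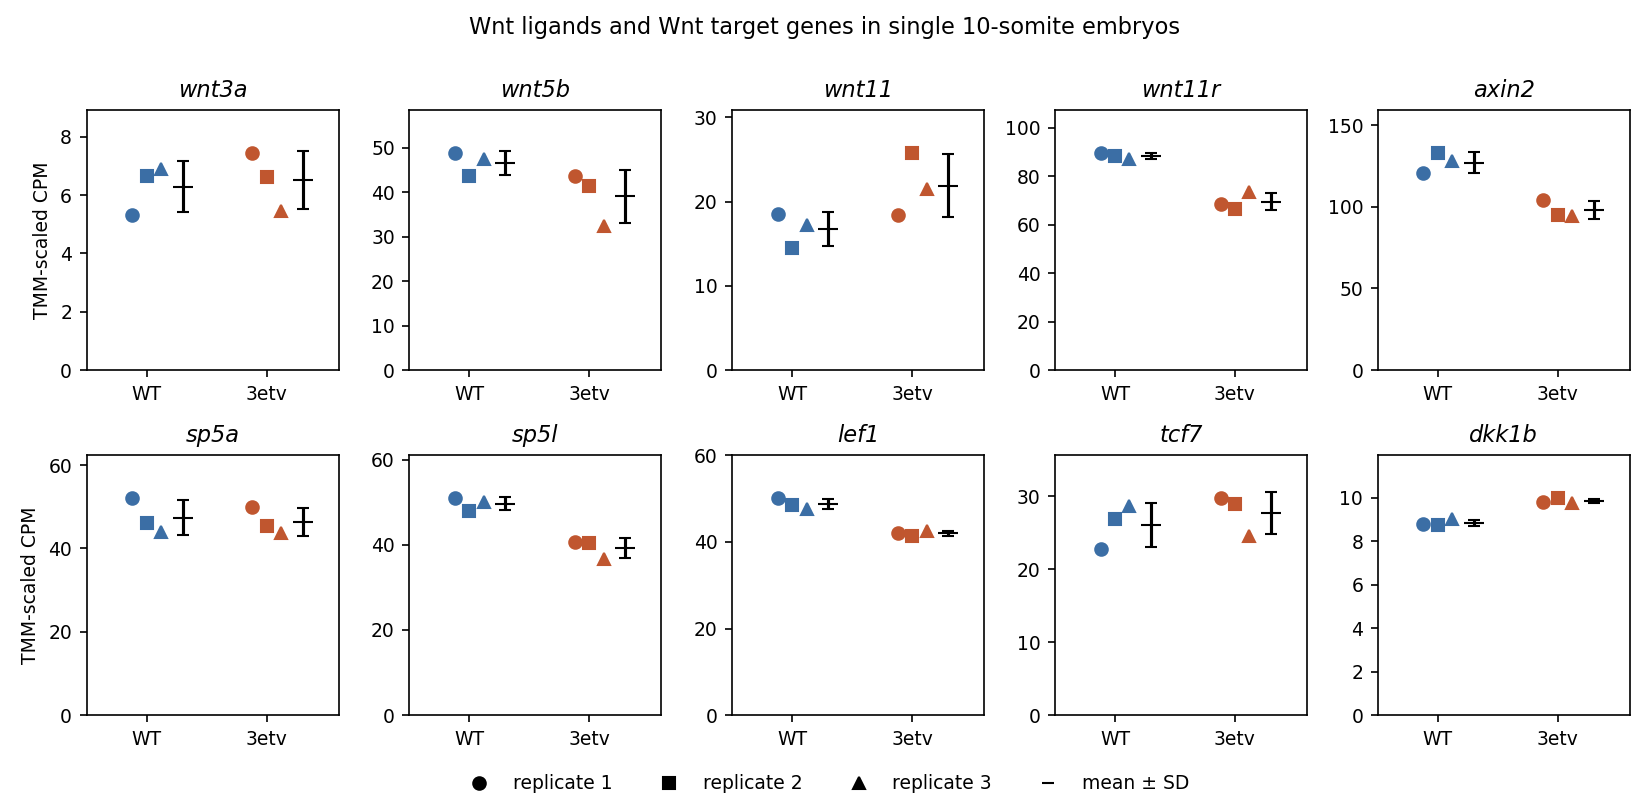
TMM-scaled CPM (vertical axes, each from 0) of the 9 tested members and of wnt11r, a second Wnt11-type ligand, in WT (blue) and 3etv (orange) embryos. Each symbol is 1 embryo and the black mark with its bar is the mean ± SD (n = 3). The groups lie apart for axin2, sp5l, lef1, dkk1b and wnt11r and overlap for wnt3a, wnt5b, wnt11, sp5a and tcf7.

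wnt3a (ENSDARG00000058822), the canonical ligand of the tailbud and dorsal neural tube, had 119, 195 and 173 counts in the WT embryos and 139, 144 and 99 in the 3etv embryos. Scaled, these were 5.31, 6.67 and 6.91 CPM in WT and 7.44, 6.62 and 5.47 in 3etv. The lowest value was in a WT embryo and the highest in a 3etv embryo, and the groups overlapped. The log2 difference of 0.05 (SE 0.16, edgeR adjusted p 0.85) had a 95% interval for the 3etv over WT ratio from 0.81 to 1.31. It turned to -0.060 without WT replicate 1 and to -0.054 without 3etv replicate 1. A change within that interval was not detectable here.

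wnt8a, the other canonical ligand of the posterior body, gave no measurement. Both of its entries (ENSDARG00000052910 and ENSDARG00000078507) had 0 counts in all 6 libraries. For reads assigned to an entry, this allows at most between 0.103 and 0.166 CPM per library (3 counts, counting error alone). It sets no bound on reads that were set aside before counting. In RefSeq's gene list for another assembly, GRCz12tu, wnt8a and a gene named wnt8-2 have the same start and end, and the counting tool named for these data, HTSeq, by default sets aside reads that overlap more than 1 gene. Such reads made up from 0.325% to 0.355% of each library's total in the table. Its part in the zeros was not tested, and nothing can be read from them about wnt8a transcripts in either genotype.

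The ligands of the non-canonical branch gave opposite signs. wnt5b (ENSDARG00000102464), which acts in tail extension and cartilage, had 48.8, 43.6 and 47.5 CPM in WT and 43.6, 41.3 and 32.4 in 3etv. The groups just overlapped, at 3etv replicate 1 and WT replicate 2, while 3etv replicate 3 lay lowest. At -0.25 on the log2 scale (SE 0.10), wnt5b was not called (edgeR adjusted p 0.078). It passed without 3etv replicate 1, at -0.33 (adjusted p 0.035), and was -0.13 without 3etv replicate 3 (adjusted p 0.26).

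wnt11 (ENSDARG00000004256) is the only ligand among the members that was called. In the reference table of gene names this identifier bears the later symbol wnt11f2, the gene known from the silberblick mutant, in which cell movements of gastrulation are impaired. It had 18.5, 14.5 and 17.2 CPM in WT and 18.4, 25.8 and 21.5 in 3etv, so 3etv replicate 1 lay inside the WT range and the other two 3etv embryos above it. The mean rose from 16.7 ± 2.02 to 21.9 ± 3.71 CPM, or by 0.39 on the log2 scale (SE 0.13, edgeR adjusted p 0.034). The call was lost when WT replicate 2, WT replicate 3, 3etv replicate 2 or 3etv replicate 3 was left out, at 0.30, 0.41, 0.26 and 0.41 (adjusted p 0.14, 0.065, 0.18 and 0.064).

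The second Wnt11-type gene is listed as wnt11r (ENSDARG00000014796) and is not a member. It is now also called wnt11, and is described here because the symbols were exchanged between annotations. It fell from 88.4 ± 1.31 to 69.6 ± 3.65 CPM, with 89.6, 88.5 and 87.0 in WT and 68.7, 66.5 and 73.6 in 3etv (log2 fold change -0.35, SE 0.06, edgeR adjusted p 0.0012). Every 3etv embryo lay below every WT embryo, and the call held in each of the 14 alternatives. Under the later meaning of the symbol wnt11, the direction is therefore the opposite. Within each embryo, the ratio of wnt11 to wnt11r counts was 0.206, 0.164 and 0.198 in WT and 0.267, 0.388 and 0.293 in 3etv. The ratio was higher in each 3etv embryo, with a two-sided exact permutation p of 0.1, the smallest that 3 against 3 embryos allow (0.23 adjusted over the 9 ratios computed).

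**Figure D2:**
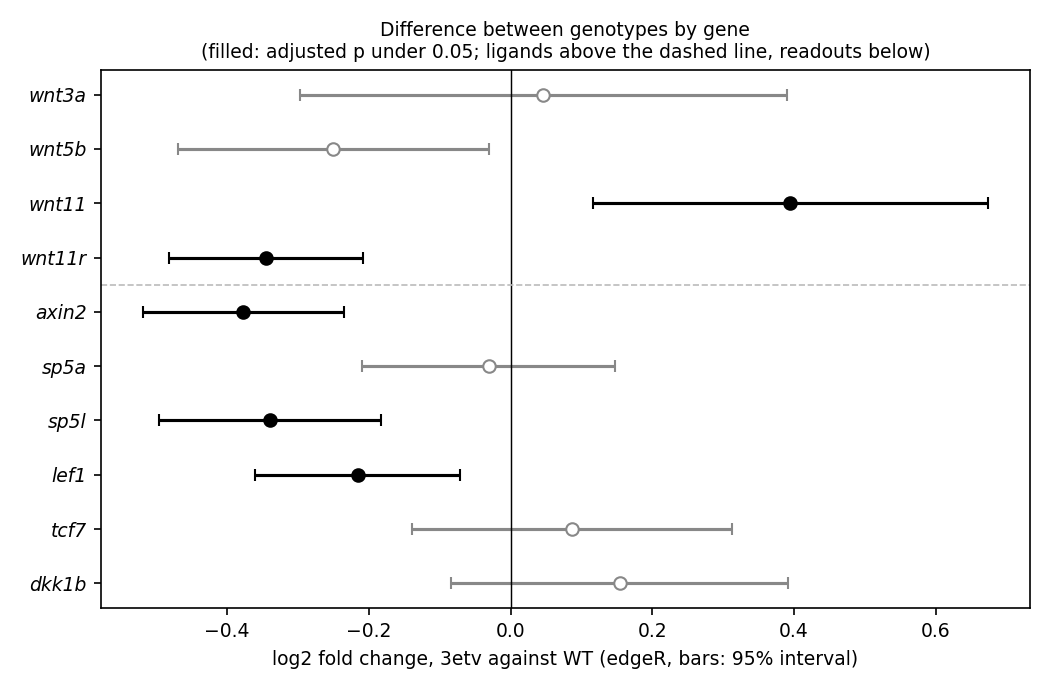
Log2 fold change of 3etv against WT (horizontal axis, edgeR) with its 95% interval for the 9 tested members and wnt11r. Filled points had an adjusted p under 0.05. Above the dashed line wnt11 lies at 0.39 and wnt11r at -0.35, and below it axin2, sp5l and lef1 lie left of 0 while sp5a, tcf7 and dkk1b have intervals that include 0.

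Among the readouts, axin2 (ENSDARG00000100149), the feedback inhibitor most often used as a reporter of canonical Wnt activity, had the lowest adjusted p of the members. It had 2705, 3886 and 3203 counts in WT and 1948, 2065 and 1711 in 3etv, or 120.7, 132.9 and 127.9 CPM against 104.3, 94.97 and 94.54. The groups did not overlap. The mean fell from 127 ± 6.17 to 97.9 ± 5.51 CPM, a ratio of 0.77 (log2 fold change -0.38, SE 0.07, edgeR adjusted p 8.15e-04). The call held in each of the 14 alternatives, with log2 fold changes from -0.42 to -0.35. In absolute size the change exceeded that of 64.4% of tested genes, a rank that makes no allowance for the larger SE of genes with few counts.

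sp5a and sp5l encode related zinc finger factors of the Sp family that act as direct targets and mediators of Wnt8 signalling in zebrafish mesoderm and neurectoderm, and their values differ in pattern. sp5l (ENSDARG00000115868) had 50.9, 48.0 and 50.1 CPM in WT and 40.6, 40.5 and 36.6 in 3etv, with no overlap (log2 fold change -0.34, SE 0.07, edgeR adjusted p 0.0033), and was called in each alternative. sp5a (ENSDARG00000076571) had 52.05, 46.15 and 43.95 CPM in WT and 50.005, 45.39 and 43.65 in 3etv. These sets interleave, and its log2 difference of -0.03 (SE 0.08, adjusted p 0.81) had a 95% interval for the ratio from 0.86 to 1.11. Without WT replicate 1 its sign turned, at 0.039, as it did without 3etv replicate 3, at 0.012.

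Set against each other within an embryo, sp5a had 1.02, 0.962 and 0.877 counts per sp5l count in WT and 1.23, 1.12 and 1.19 in 3etv. The sp5a share was higher in each 3etv embryo than in each WT embryo (two-sided exact permutation p 0.1, the smallest possible, 0.23 adjusted over 9 ratios). This ratio does not depend on how libraries were scaled.

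lef1 and tcf7 encode HMG-box partners of beta-catenin, and lef1 is itself raised by Wnt signalling in many tissues. lef1 (ENSDARG00000031894) had 50.1, 48.5 and 47.7 CPM in WT and 42.0, 41.4 and 42.5 in 3etv, and each 3etv embryo was below each WT embryo. It fell by a modest amount, to a ratio of 0.86 (log2 fold change -0.22, SE 0.07, edgeR adjusted p 0.026). Without WT replicate 1, 2 or 3 the values were -0.20, -0.22 and -0.23 (adjusted p 0.054, 0.078 and 0.052), and without 3etv replicate 1 or 2 they were -0.21 and -0.21 (0.059 and 0.079), so that the size held and the call did not. The SD over embryos was 2.54% of the mean in WT and 1.31% in 3etv, less than the 2.83% and 3.50% that counting error alone gives at its mean counts.

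tcf7 (ENSDARG00000038672) had 22.7, 26.9 and 28.7 CPM in WT and 29.7, 28.9 and 24.5 in 3etv. The ranges overlapped, and the log2 difference of 0.09 (SE 0.10, edgeR adjusted p 0.56) had a 95% interval for the ratio from 0.91 to 1.24. Without WT replicate 1 it was -0.0027. The ratio of lef1 to tcf7 counts was 1.89 ± 0.28 in WT and 1.53 ± 0.18 in 3etv, and the groups overlapped (two-sided exact permutation p 0.2, 0.36 adjusted over 9 ratios). With 3 against 3 embryos that test cannot go below 0.1.

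dkk1b (ENSDARG00000045219) encodes a secreted inhibitor that binds LRP5 and LRP6 and is also a Wnt target. It had 197, 256 and 226 counts in WT and 183, 217 and 177 in 3etv, which is 8.79, 8.76 and 9.02 CPM against 9.80, 9.98 and 9.78. Each 3etv embryo was higher than each WT embryo after scaling, yet dkk1b, at 0.15 on the log2 scale (SE 0.11), was not called (edgeR adjusted p 0.31). Its SD was 1.63% of the mean in WT and 1.12% in 3etv, where counting error alone gives 6.65% and 7.21%, so the closeness of the embryos carries little weight. Of the 9 tested members, 4 had groups that did not overlap, against 45.1% of all tested genes.

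Readouts were then set against wnt3a within each embryo. axin2 had 22.7, 19.9 and 18.5 counts per wnt3a count in WT and 14.0, 14.3 and 17.3 in 3etv, so the groups did not overlap. The same held for sp5l, at 8.02 ± 1.37 and 6.09 ± 0.61. For both the two-sided exact permutation p was 0.1, the smallest possible (0.23 adjusted over 9 ratios). The ratios of sp5a, lef1, tcf7 and dkk1b to wnt3a overlapped between groups. The SD of wnt3a CPM was 13.7% of the mean in WT and 15.2% in 3etv, where counting error alone gives 7.85% and 8.86%.

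**Figure D3:**
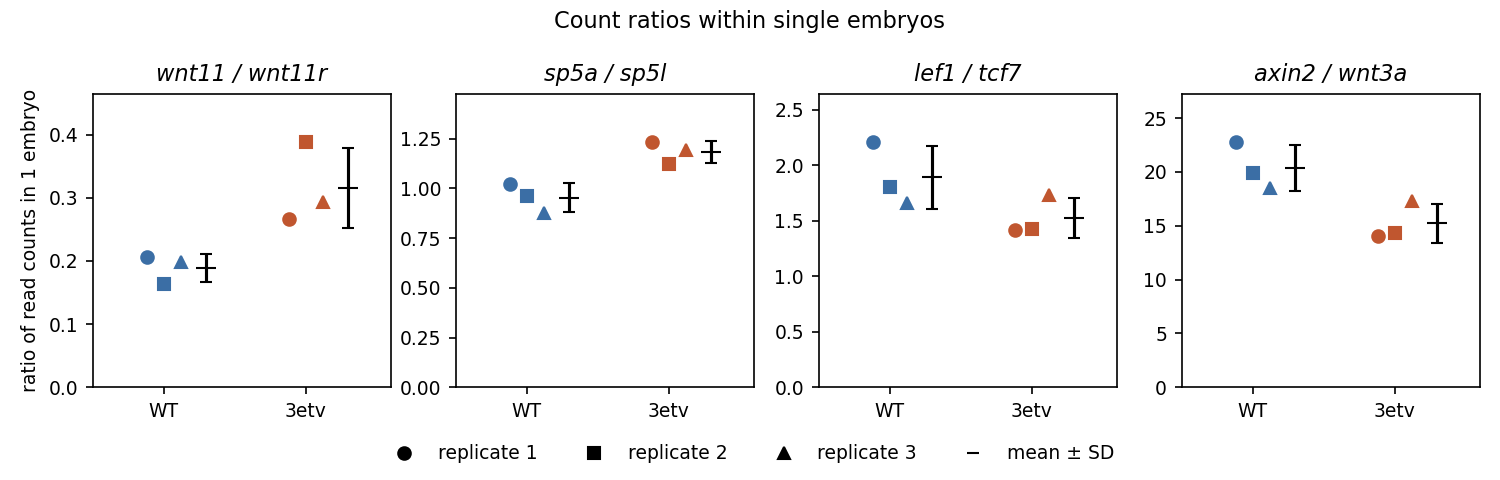
Ratios of read counts within single embryos (vertical axes, each from 0) for wnt11 over wnt11r, sp5a over sp5l, lef1 over tcf7 and axin2 over wnt3a in WT (blue) and 3etv (orange). Each symbol is 1 embryo and the black mark with its bar is the mean ± SD (n = 3). The groups are apart in each panel but that of lef1 over tcf7, with wnt11 over wnt11r at 0.189 ± 0.022 in WT and 0.316 ± 0.063 in 3etv.

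Some markers of the tailbud and presomitic mesoderm, where several of these genes are transcribed, moved as well. Of 14 tested markers, 7 were lower in 3etv and 1 was higher, where 15.4% of all tested genes were lower and 15.9% higher. The summed level of the markers ranged from 1016 to 1160 CPM in WT and from 852 to 966 in 3etv. cdx4 and tbx6 weigh most in that sum (means of 270 and 223 CPM in WT). No marker was at 0. msgn1, which drives progenitors into presomitic mesoderm, fell by 0.87 on the log2 scale, the oscillating genes her7 and her1 by 0.62 and 0.36, and the T-box genes tbx16l and tbx6 by 0.42 and 0.37 (edgeR adjusted p from 2.93e-04 to 0.021). hes6 and cdx4 fell by 0.30 and 0.28 (adjusted p 0.0063 and 0.0040). tbxta, the T-box gene of tailbud progenitors and notochord, rose by 0.35 (adjusted p 0.029). Not called were tbxtb, noto, fgf8a and cyp26a1, at 0.51, 0.26, 0.13 and 0.01 (edgeR adjusted p from 0.086 to 0.94). Nor were tbx16 and eve1, at -0.08 and -0.18 (0.56 and 0.37). Of these, noto was higher in each 3etv embryo than in each WT embryo. The call of tbx6 was lost without WT replicate 1 or 3 or 3etv replicate 2 or 3 (log2 values from -0.37 to -0.29), and that of tbxta without WT replicate 2 or 3 or 3etv replicate 2 (from 0.24 to 0.30). The part of tissue amount in the Wnt readouts was not tested.

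Relative to the mean log2 CPM of those 14 markers in the same embryo, sp5l was lower in each 3etv embryo than in each WT embryo, with a difference of -0.18. axin2 differed by -0.22 and lef1 by -0.05, with overlap between the groups. wnt11 and dkk1b stood higher on this scale in each 3etv embryo, by 0.54 and 0.31, where their edgeR log2 fold changes were 0.39 and 0.15. The marker mean itself was lower in each 3etv embryo, with a difference of -0.16. A gene at equal CPM in both groups therefore stands higher in 3etv on this scale. wnt3a, sp5a, tcf7 and wnt5b differed by 0.21, 0.13, 0.25 and -0.10, with overlap. These are descriptions without a test, over markers that went in both directions and include cdx4, itself counted below among the canonical readouts. The midbrain-hindbrain markers, a second site of Wnt expression, had summed levels of 147 to 168 CPM in WT and 156 to 158 in 3etv. pax2a and fgf8a weigh most in that sum (means of 72.9 and 58.6 CPM in WT). Of 5 tested, 1 was called, beside 31.3% of all tested genes. It was wnt10b, at -0.43 (edgeR adjusted p 0.049). That call was lost without WT replicate 2 or 3 or 3etv replicate 2 or 3, at values from -0.46 to -0.29.

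The rest of the pathway was read from fixed lists, in which genes shared by 2 lists (znrf3, notum1a, cdx4, fgf8a, pax2a, wnt1 and wnt10b) count in each. Of 17 other Wnt ligands tested, 7 were lower in 3etv and 0 higher, beside 15.4% and 15.9% of all tested genes. Their median log2 fold change was -0.28, against 0.0035 over all tested genes. wnt16, a ligand of the somites that acts in the zebrafish pathway to blood stem cells, fell from 18.2 ± 2.30 to 6.76 ± 1.08 CPM (log2 difference -1.44, SE 0.14, edgeR adjusted p 7.62e-06). wnt10a, wnt7aa and wnt2bb fell by 1.64, 1.36 and 1.06 on the log2 scale (adjusted p 0.00295, 3.36e-04 and 0.0010). wnt10a was low, with 39, 69 and 69 counts in WT and 19, 18 and 6 in 3etv. These changes, named as the largest called in their list, were larger than those of any member.

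Some markers of other tissues moved beside these ligands. myog and myod1, which drive muscle differentiation, fell by 0.97 and 0.60 on the log2 scale, and gata1a of the red blood cell lineage fell by 0.59 (edgeR adjusted p 0.0021, 0.0021 and 0.0048). tal1, a marker of blood and endothelial progenitors, was at 0.26 (adjusted p 0.053). For the hatching gland protease ctslb, the entry ENSDARG00000039173 rose by 1.01 (edgeR adjusted p 0.018). Its call was lost without WT replicate 1 or 3, at 0.95 and 0.96. Another ctslb entry (ENSDARG00000074306) was at 1.26 with no overlap between the groups, but was not called (edgeR adjusted p 0.064). The other entries of that symbol were not tested. The hatching enzyme gene he1.1 was at -0.04 (adjusted p 0.93). sox3, krt4 and elavl3 fell by 0.35, 0.25 and 0.20 (edgeR adjusted p 7.51e-04, 0.0048 and 0.014). shha rose by 0.29, and sox17 by 1.28 from low counts (adjusted p 0.023 and 0.030). otx2b, cdh1, col2a1a, hand2 and pax2a, at values from -0.09 to 0.09, were not called. The median over the list was 0.07. Of 17 tissue markers tested, 6 were lower and 3 higher, beside 15.4% and 15.9% of all tested genes. The higher calls numbered 0 without WT replicate 3 and 1 without WT replicate 2. Over all tested genes, higher calls fell from 2946 to 2361 and 2203 in those settings. The part of tissue makeup in the ligand values was not tested.

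Genes for Wnt release and its potentiation were read next. Of 7 tested, with the opposing factor znrf3 among them, 5 were lower and 1 higher, beside 15.4% and 15.9% of all tested genes. wls, the cargo receptor that carries Wnt proteins to the cell surface, fell from 253 ± 12.9 to 185 ± 7.21 CPM (log2 difference -0.46, SE 0.06, edgeR adjusted p 1.08e-04). porcnl, the other release gene tested, was at 0.03 (adjusted p 0.84). Both were chosen after their values were seen. rspo3 and rspo2, which encode R-spondins that raise receptor levels, fell by 0.78 and 0.55, and znrf3, a membrane ubiquitin ligase that removes Frizzled and is itself a Wnt target, fell by 0.47 (adjusted p 1.19e-04, 0.038 and 0.0033). rspo1 rose by 2.51 (adjusted p 0.013) from low levels, with 1.07, 4.599 and 5.19 CPM in 3etv against 0.669, 0.376 and 0.878 in WT. The call of rspo1 was lost without WT replicate 1 or 2 (2.55 and 2.21), and that of rspo2 without any embryo but WT replicate 1 (from -0.61 to -0.43). Without WT replicate 2, 3 genes of this list were called in place of 6, while calls over all tested genes fell from 5801 to 4385.

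Secreted inhibitors changed in both directions, 6 lower and 5 higher among 17 tested, beside 31.3% called over all tested genes, with a median of 0.02. draxin, an axon guidance factor and Wnt antagonist, fell from 78.1 ± 4.40 to 25.7 ± 1.70 CPM (log2 difference -1.61, SE 0.08, edgeR adjusted p 1.87e-08), and wif1, which binds Wnt proteins, fell from 27.5 ± 0.58 to 13.9 ± 0.69. frzb, a secreted Frizzled-related protein, rose from 2.74 ± 0.80 to 8.62 ± 2.35 CPM (by 1.67 on the log2 scale, adjusted p 3.55e-04). The notum genes encode an enzyme that strips the lipid from Wnt proteins. notum1a was higher by 0.81, while notum1b was at -0.89 (edgeR adjusted p 0.0021 and 0.0016). notum2 was also lower, at -2.18 (adjusted p 0.0087), from low counts of 40, 17 and 26 in WT and 7, 2 and 5 in 3etv.

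Of 18 receptor genes tested, 4 were lower and 3 higher, a share near the 31.3% called over all tested genes. fzd10 and fzd2 fell by 0.36 and 0.33 on the log2 scale, and fzd8b and fzd5, Frizzled genes of the anterior brain and eye field, rose by 0.75 and 0.50 (edgeR adjusted p from 0.0015 to 0.0059). Calls among receptors numbered 4 in place of 7 without WT replicate 2 or 3. Over all tested genes, calls fell from 5801 to 4385 and 4719 in those settings. The intracellular core had 0 lower and 1 higher of 25 tested, beside 15.4% and 15.9% of all tested genes, with a median of 0.0036. The gene called was bcl9l, a co-activator of beta-catenin, which rose by 0.56 (adjusted p 0.0013).

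**Figure D4:**
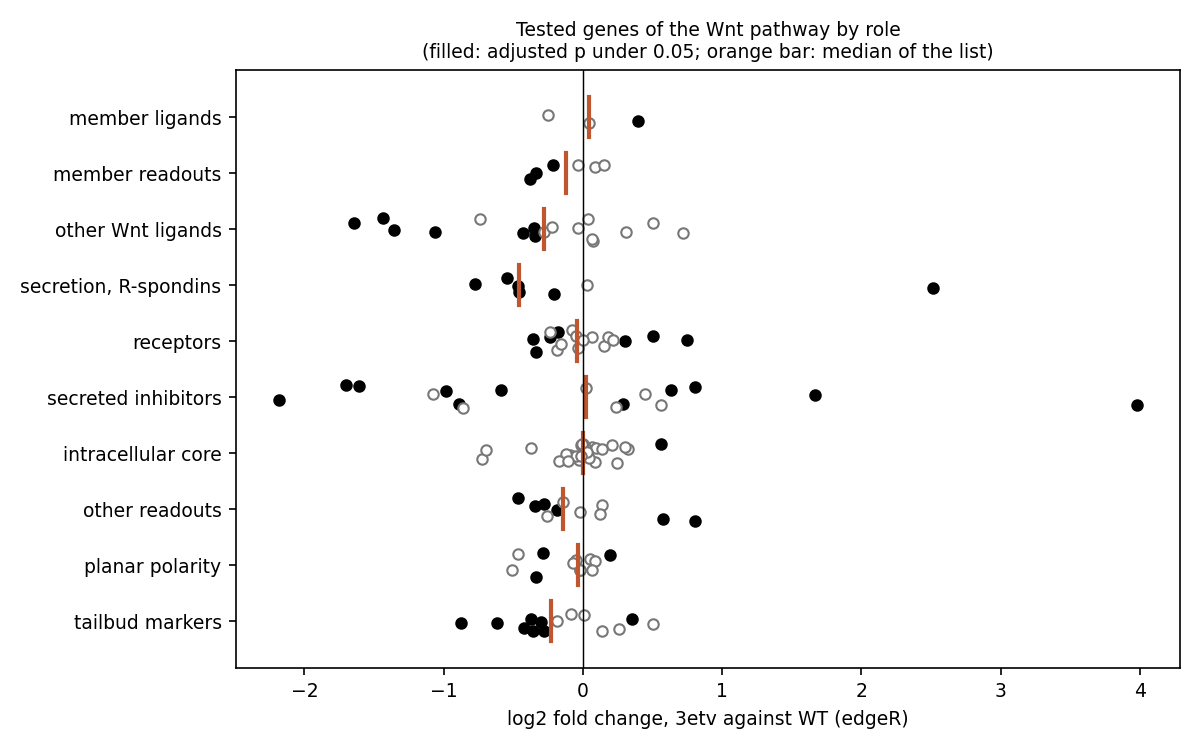
Log2 fold change of 3etv against WT (horizontal axis, edgeR) for each tested gene of the Wnt lists and of the tailbud markers, 1 point per gene, spread vertically for legibility. Filled points had an adjusted p under 0.05 and orange bars are list medians. The other ligands include 7 filled points left of 0 and none to its right, and the intracellular core has 1 filled point among 25. Over all tested genes, 15.4% were called lower and 15.9% higher in 3etv.

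Of 11 other genes known as canonical readouts, 4 were lower and 2 higher, beside 15.4% and 15.9% of all tested genes. Lower were znrf3 and ccnd1, which encodes cyclin D1 (-0.47 and -0.34), besides cdx4 and mycn, and higher were notum1a and nkd2a (0.81 and 0.57). nkd2a was not called without WT replicate 1 or 3 or 3etv replicate 3 (from 0.46 to 0.59). Among 12 planar polarity entries, 2 were lower and 1 higher, beside the same shares of all tested genes. prickle1a and prickle1b fell by 0.34 and 0.28 and celsr1a rose by 0.19 (edgeR adjusted p 0.0013, 0.023 and 0.032). Without 3etv replicate 2, prickle1b and celsr1a lost their calls (-0.29 and 0.17) and 1 gene of this list was called. Calls over all tested genes fell from 5801 to 4246 in that setting. prickle1b lost its call also without WT replicate 1 or 3etv replicate 3 (-0.24 and -0.20), and celsr1a without WT replicate 1 or 2 or 3etv replicate 1 (0.18, 0.17 and 0.17).

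By pattern over the 6 embryos, the genes most like axin2 among 9985 (those whose mean log2 CPM was 3 or more) were sparc, rpl22 and rrp7a, with Pearson's r of 0.999, 0.998 and 0.997 on log2 CPM. Each was lower in 3etv, and 454 genes reached an r of 0.95. The genes most like wnt3a were kdm5c, tprb and atp5fa1 (r 0.993, 0.992 and 0.990), none of them called, and 60 genes reached 0.95. These are the highest of 9985 values, each from 6 embryos. The embryos are of both genotypes, so a difference between genotypes that 2 genes share raises r. Whether any of these genes are regulated together was not tested.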

How the data were processed

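Single embryos were frozen, RNA was taken with Trizol and made into poly-A, strand-specific libraries, per the labels' protocols. The authors deposited raw read counts for Ensembl genes, not normalized. STAR, HTSeq and GRCz11 are named in the submitters' processing notes, without versions. Settings, including strand, and the annotation release are not given in the sources used here. A missing tab leaves the header with 7 names for 8 columns, so columns follow the order of the 6 sample titles in it. The 5 summary entries (from 58.3% to 60.3% of reads) were left out.

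Counts were filtered with filterByExpr (18533 genes kept), scaled by TMM and tested with edgeR 4.0.16 in R 4.3.3 (robust quasi-likelihood, genotype as the sole term, Benjamini-Hochberg adjustment over all tested genes). SE was taken from the log2 fold change and its F statistic. Ratios of counts were compared by exact permutation. Alternatives used limma 3.58.1 and DESeq2 1.42.0, and the methods were tested on simulated counts. Floors of 3 counts cover counting error alone, since reads were not tagged by molecule. No replicate pair agreed within sampling noise (chi-square over its degrees of freedom at least 3.43). The edgeR p-values set each difference against the spread between embryos of a group, moderated over genes, and do not cover clutch or line.

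The members and lists were chosen with earlier results of these data known. Named by rule were the members, the Pea3 genes, wnt11r, and the 3 genes most like wnt3a and axin2. The rule also named up to 4 called genes of each list (6 of the tailbud list) with the largest change and a mean log2 CPM of 0 or more. Named after their values were seen were wls, porcnl, notum2, cdx4, mycn, tal1, he1.1 and the other tailbud and tissue markers outside that rule.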

Additional observations from a re-analysis of the deposited data

How the results depend on the processing

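The 14 alternatives were other scaling, tests and filters, a replicate block and leaving out each embryo; scaling by library totals alone was chosen after seeing the data. Of 126 member results, 106 kept their direction and side of the threshold, 12 became weaker, 3 stronger and 5 changed sign. The members called numbered 4 of 9, 5 with no low-count filter, 2 with the replicate block, and from 2 to 4 without 1 embryo. Over all tested genes, the calls in those settings numbered 5801, 6470, 4524 and from 4246 to 5721. With the block, wnt11 (0.39, adjusted p 0.085) and lef1 (-0.22, 0.087) were no longer called. Deviations from the group means had r from -0.13 to -0.03 between same-numbered embryos and from -0.059 to 0.14 between other pairs. The main fit used no pairing. Whether same-numbered embryos shared a clutch or batch was not tested. Without 1 embryo, log2 fold changes ran from -0.060 to 0.16 for wnt3a, from -0.085 to 0.039 for sp5a and from -0.0027 to 0.17 for tcf7. With library totals wnt11 just missed the threshold (0.36, adjusted p 0.052) and wnt5b passed (-0.29, 0.049), as it did with no low-count filter (-0.26, 0.030). With the block, calls over all tested genes fell from 5801 to 4524. Among the lists, they fell from 7 to 5 for other ligands and from 7 to 4 for receptors. For release and R-spondins they fell from 6 to 4. Calls stayed at 8 for tailbud markers and rose from 11 to 12 for secreted inhibitors. Among the tested members, counting error was largest for wnt3a and dkk1b. The causes of these shifts were not tested.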
